A study of Homo sapiens with 40 samples.

Results

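The immediate early genes examined here were FOS, JUN, JUNB, JUND, EGR1, IER2, IER5, ZFP36 and KLF6, 9 genes found by symbol among the 57939 genes of the total RNA table and the 58336 genes of the polyA table. All 9 were present in both tables. They were followed in H1, a widely used line of human embryonic stem cells, with no genetic change or added agent named in the labels beyond the differentiation medium. Day 0 cells were kept in mTeSR1, a defined stem cell medium. Day 3 and day 5 cells came from one mesoderm protocol in medium with serum, with BMP4 on the first day and bFGF afterwards, so medium, growth factors and time cannot be told apart. On each day the cells were extracted in sequence with a commercial kit into a membrane extract (ME), a soluble nuclear extract (SNE), a chromatin-bound nuclear extract (CBNE), a pellet extract (PE) and, as the first step, a cytoplasmic extract (CE). RNA labelled INPUT was taken as that of cells that were not fractionated. There were 36 total RNA libraries in 18 groups of day and fraction, and 4 polyA libraries of day 0 nucleus and cytoplasm, with 2 libraries in every group. The labels do not say that the 2 came from separate cultures, so p-values measure the spread between these libraries, which may be technical.

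Immediate early genes are transcribed within minutes of a stimulus such as serum or a growth factor, without new protein synthesis. Signals through MAP kinases reach transcription factors such as SRF with its ELK partners and CREB, which already sit at these promoters. Many of the mRNAs are short-lived, in part because AU-rich elements in their 3′ UTRs recruit decay factors, and ZFP36 encodes one of those factors. FOS forms AP-1 dimers with JUN, JUNB or JUND. EGR1 and KLF6 encode zinc finger transcription factors, and IER2 and IER5 encode nuclear regulators of the immediate early response.

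The AU-rich pentamer ATTTA is shown because it is the core of the decay elements named above. The 30 base window with the most copies in each 3′ UTR is shown, read from the GENCODE 29 transcript on GRCh38, 5′ to 3′, with ATTTA in capitals.
FOS (chr14:75282058-75282087, plus strand): tgtgtttttaATTTATTTAttaagatggat
JUN (chr1:58781335-58781364, minus strand): tccagaaaggatATTTAagaaaatacaata
JUNB (chr19:12793060-12793089, plus strand): atatatttgtgtATTTAacagggaggggaa
JUND (chr19:18279997-18280026, minus strand): cgattctgccctATTTAtgtttctactcgg
EGR1 (chr5:138469064-138469093, plus strand): ctgaaaatgtaaATTTAtaaatatattcag
IER5 (chr1:181092449-181092478, plus strand): tcctttATTTATTTATTTATTTAattataa
ZFP36 (chr19:39409188-39409217, plus strand): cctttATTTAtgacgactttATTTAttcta
KLF6 (chr10:3778791-3778820, minus strand): gtATTTAcaaatataacacaacaATTTAac
ATTTA was found in the 3′ UTR of 8 of the 9 genes and was not in that of IER2. The same 5 letters were in 64.4% of the 18928 protein-coding transcripts with a 3′ UTR, so the presence of one copy does not set the genes apart. IER5 held 10 copies, 4 of them overlapping in the window above, KLF6 held 6, FOS and ZFP36 held 5 each, JUN held 3, JUNB held 2, and JUND and EGR1 held 1 each. The median over all 3′ UTRs was 1 copy, at a median length of 872 bases, and the median density was 1.41 copies per kb. The members' 3′ UTRs differ in length, with 3543 bases for KLF6, 3013 for IER5, 1287 for JUN and 1234 for EGR1. FOS has 806, ZFP36 has 713, JUND has 681 and JUNB has 500. The raw counts thus do not rank the genes by density, and a high count in a long 3′ UTR such as that of KLF6 need not be dense. The longer form TATTTAT was in 6 of the 9 and in 28.8% of all.

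The genes are short and intron-poor. JUN, JUNB, JUND, IER2 and IER5 have 1 exon in the transcript used, a structure found in 5.95% of 19659 protein-coding transcripts, EGR1 and ZFP36 have 2 exons, and FOS and KLF6 have 4. Spliced lengths ran from 1786 bases for ZFP36 to 4656 bases for KLF6, and GC content from 45.9% for KLF6 to 69.7% for JUND. A single-exon gene gives the same read positions before and after processing. Nuclear precursor and mature RNA thus cannot be told apart for JUN, JUNB, JUND and IER5. The exons of all IER2 transcripts cover 3072 bases, against 2934 in the transcript used, so for IER2 this holds only within that transcript. JUNB shares 259 exonic bases, 14.2% of its exons, with HOOK2 on the opposite strand. IER2 shares 946 exonic bases, 30.8%, with the antisense gene AC011446.2, and the labels do not give strand, so reads of each such pair cannot be told apart.

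Bases upstream of the start of EGR1 and FOS are shown because these promoters are textbook sites of the rapid response (RefSeq, GRCh38.p14, 5′ to 3′ on the gene's strand). The window is the 250 bases before the RefSeq start, which for some genes differs from the start of the GENCODE 29 transcript used above. It overlaps the GENCODE transcript by 54 bases for FOS, 34 for ZFP36 and 66 for KLF6, and lies wholly inside it for JUN, so FOS is shown for the 196 bases before its transcript and JUN is not shown. Capitals mark matches, on either strand, to the CArG box bound by SRF, to the CRE letters TGACGTCA, to the CRE core TGACG, to TGACATCA, to TATAAA and to the AP-1 letters TGANTCA. The CRE core lies within the full CRE.
EGR1 (chr5:138465229-138465478, plus strand): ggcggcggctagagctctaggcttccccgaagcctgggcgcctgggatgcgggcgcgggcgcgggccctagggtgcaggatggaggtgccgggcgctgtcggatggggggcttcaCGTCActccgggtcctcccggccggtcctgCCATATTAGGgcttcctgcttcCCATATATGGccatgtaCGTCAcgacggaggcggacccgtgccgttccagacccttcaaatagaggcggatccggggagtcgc
FOS (chr14:75278578-75278773, plus strand): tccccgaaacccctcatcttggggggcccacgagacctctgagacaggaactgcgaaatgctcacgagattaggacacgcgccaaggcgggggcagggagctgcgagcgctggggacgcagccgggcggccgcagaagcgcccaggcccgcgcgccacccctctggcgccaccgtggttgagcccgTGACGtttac
Over the full windows, EGR1 held 2 CArG boxes, against a share of 1.16% of 35116 promoters with any, and no other member held one in this window. The CRE core was in FOS, JUN, JUNB, JUND, EGR1 and IER2 and in 21.22% of all promoters. The IER2 window ends at chr19:13150410, upstream of the start at 13151975 of the transcript used above. The full CRE was in JUND and in 1.65% of all. TGACATCA was in JUN and KLF6 and in 2.37% of all. TATAAA was in FOS and JUNB and in 10.72% of all. TGANTCA was in no member and in 6.57% of all.

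Values are TPM, reads per gene scaled by length to a fixed library total, so each is a share of its library and not an amount per cell. In bulk RNA, fewer cells that express a gene and less RNA per cell cannot be told apart. The files hold no read numbers. From the smallest step in TPM, 1 read on a 1 kb transcript was estimated to equal 0.708 to 1.82 TPM in ME, SNE, CE and INPUT libraries and 0.232 to 0.358 TPM in polyA libraries. It equalled 13.9 to 62.2 TPM in CBNE and 3.36 to 30.7 TPM in PE, which were far shallower. A gene was called at an adjusted p under 0.05 and a difference of at least 1 on the log2(TPM + 1) scale, from limma with Benjamini-Hochberg adjustment over all 24735 total RNA genes or 16667 polyA genes tested. That scale understates changes of low genes. All 9 members passed the filter in total RNA, and 8 of 9 passed in polyA RNA, where JUNB did not. Within day 5 the library numbers jump between the first ME library with INPUT and CE, and the second ME library with SNE, CBNE and PE. The day 5 difference of SNE, CBNE or PE from CE cannot be told apart from that jump.

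In unfractionated RNA most of the immediate early genes stood higher on the later days. By day 3, 4 of 9 were called higher than on day 0, against 4.06% of all genes tested, and none was called lower, against 3.38%. KLF6, JUN, JUND and IER5 were these 4. By day 5, 7 of 9 were called higher than on day 0, against 6.15% of all genes tested, and none lower, against 6.67%. The members' median difference by day 5 was 1.6, against −0.08 for all genes tested. The members' summed TPM took 0.133% and 0.139% of the day 0 INPUT libraries, 0.207% and 0.191% of the day 3 libraries and 0.405% and 0.388% of the day 5 libraries.

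Among the AP-1 genes, FOS had 181 and 191.7 TPM on day 0, 242.3 and 219.3 on day 3, and 649 and 652.3 on day 5. The day 5 libraries were high and the 3 days did not overlap. FOS rose by 1.80 ± 0.19 (log2, SE) over days 0 to 5 (limma adjusted p = 2.33e-07), and its day 3 difference of 0.31 did not pass (adjusted p = 0.371). JUN, the usual partner of FOS, had 106.7 and 109.4 TPM on day 0, 337.9 and 332.1 on day 3, and 443.1 and 429 on day 5. Its rise of 1.62 ± 0.18 was already called on day 3 (adjusted p = 1.43e-06), and day 5 differed from day 3 by 0.38 (adjusted p = 0.254). JUND, which in many cells is expressed without a stimulus, had 188.8 and 214 TPM on day 0, 541.4 and 470.6 on day 3, and 795.3 and 687.1 on day 5. All later libraries stood above both day 0 libraries, and the rises were 1.32 by day 3 and 1.87 by day 5 (SE 0.19 each, adjusted p = 3.9e-05 and 2.12e-07). JUNB had 43.16 and 45.4 TPM on day 0, 24.83 and 16.15 on day 3, and 104.5 and 97.82 on day 5. Its days did not overlap, yet no JUNB difference passed the test, with adjusted p of 0.552, 0.422 and 0.119 for day 3 over day 0, day 5 over day 0 and day 5 over day 3. The SE of 0.88 for JUNB comes from a fit over all groups, in which 1 day 5 CBNE library listed it at 0. Fitted without CBNE and PE, JUNB was called lower by 1.10 on day 3 and higher by 1.17 on day 5, both against day 0, and higher by 2.28 on day 5 than on day 3 (limma adjusted p = 6.28e-06).

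EGR1, KLF6 and ZFP36 all encode zinc finger proteins. KLF6 had 59.84 and 61.63 TPM on day 0, 227.3 and 230.5 on day 3, and 471.8 and 502.4 on day 5. It was the member with the largest rise in INPUT, 1.90 ± 0.15 by day 3 and 2.98 ± 0.15 by day 5 (adjusted p = 7.99e-09 and 3.6e-12). EGR1 had 392.9 and 404.3 TPM on day 0, 312.9 and 286 on day 3, and 978 and 948.9 on day 5. Both day 3 libraries lay below both day 0 libraries, a difference of −0.41 that did not pass (adjusted p = 0.0912), and day 5 stood 1.27 ± 0.16 above day 0 (adjusted p = 2.46e-06). ZFP36, the decay factor, had 52.38 and 48.26 TPM on day 0, 62.33 and 46.34 on day 3, and 132.2 and 112.3 on day 5. Days 0 and 3 overlapped, and day 5 stood 1.26 ± 0.19 above day 0 (adjusted p = 2.92e-05).

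IER5 had 37.91 and 43.11 TPM on day 0, 82.39 and 88.41 on day 3, and 124 and 125.9 on day 5. It rose by 1.06 ± 0.20 by day 3 (adjusted p = 0.000641) and by 1.6 ± 0.20 by day 5 (adjusted p = 2.7e-06). The day 3 call was just over the threshold, and without the first day 0 library the difference was 0.97, and with a pseudocount of 5 it was 0.99, both with no call. IER2 had 259.6 and 260 TPM on day 0, 223.2 and 206.4 on day 3, and 325.5 and 294.2 on day 5. Its day 5 libraries lay above both day 0 libraries, by 0.25 (adjusted p = 0.226), and IER2 was the only member other than JUNB with no call against day 0. From day 3 to day 5, EGR1, FOS, ZFP36 and KLF6 were called higher, by 1.68, 1.49, 1.17 and 1.09, which is 4 of 9 against 2.49% of all genes tested, and JUNB made one more in the fit without CBNE and PE. None was called lower, against 2.32%. Without the second day 3 library ZFP36 differed by 0.96 there and lost its call.

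**Figure D1:**
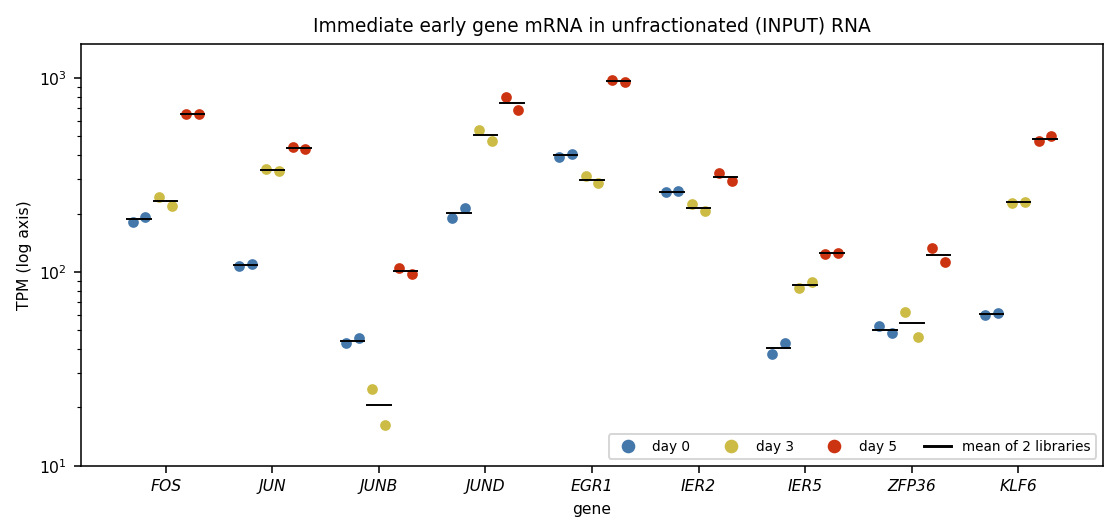
TPM of the 9 genes in INPUT RNA on a log axis, with 1 point per library, colour for the day and a black bar for the mean of 2 libraries. KLF6 shows the widest span, between 59.84 TPM on day 0 and 502.4 TPM on day 5, while IER2 stays between 206.4 and 325.5 TPM.

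By level, EGR1 led on day 0, followed by IER2, then JUND and FOS, whose libraries overlapped, then JUN, KLF6 and ZFP36. JUNB and IER5 came last with 43.16 and 45.4 TPM against 37.91 and 43.11 TPM. On day 5 EGR1 still led, followed by JUND, FOS, KLF6, JUN and IER2. IER5 and ZFP36 overlapped below these, and JUNB was lowest.

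Of 4 pluripotent cell markers, POU5F1, NANOG and LIN28A were detected in INPUT. SOX2 was listed at 0 in all 40 libraries, and since a 0 in a table without counts can be a failed estimate, it says nothing of whether SOX2 was present. The 4 markers summed to 1653 to 1656 TPM on day 0, 1220 to 1256 on day 3 and 997.9 to 1026 on day 5. POU5F1 and NANOG were called lower on day 5. All 4 mesoderm markers (TBXT, MIXL1, HAND1 and MESP1) were called higher by day 5, and their sum was 5.522 to 6.91 TPM on day 0, 61.5 to 71.6 on day 3 and 1184 to 1254 on day 5. CDH5, an endothelial gene, had 0.2189 and 0.1804 TPM on day 0, 0.751 and 0.693 on day 3, and 1.369 and 1.585 on day 5, and was called higher by 1.04 on day 5. PECAM1 and PTPRC stayed below 1 TPM. MALAT1 and NEAT1, RNAs that stay in the nucleus, summed to 2821 to 2838 TPM on day 0, 6349 to 6373 on day 3 and 8302 to 9488 on day 5. Both were called higher than on day 0, MALAT1 by 1.09 on day 3 and 1.59 on day 5, and NEAT1 by 3.34 and 3.45. From day 3 to day 5 neither was called, at 0.11 to 0.51. All these levels changed over the same days as the immediate early genes, some upward and some downward, and their part in the result was not tested.

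Related genes moved in the same comparison. Of all genes tested, 4.06% were called higher and 3.38% lower by day 3, and 6.15% higher and 6.67% lower by day 5. Of 42 other immediate early and feedback genes, 14 were called higher and 1 lower by day 3, with PLK2 at 3.41, FOSL1 at 2.94, FOSL2 at 2.73 and GADD45B at 2.72. By day 5, 21 were called higher and 1 lower, with GADD45B at 3.21, FOSL2 at 3.06, and RHOB and FOSB at 3.04 each. FOSL1, FOSL2 and FOSB encode further AP-1 subunits, and GADD45B encodes a stress-inducible regulator of MAP kinase signalling. Of 16 upstream kinases and transcription factors, 1 was called higher on each day, ELK3, an SRF partner, at 1.44 by day 3 and 1.08 by day 5, and none was called lower. Of 9 abundant long-lived mRNAs tested, such as GAPDH, none was called on either day.

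PolyA RNA of day 0 cells came from a separate preparation of nucleus and cytoplasm. FOS, EGR1, ZFP36 and JUN were called higher in the nucleus than in the cytoplasm, 4 of 8 members tested against 30.0% of all genes tested, and none was called lower, against 6.22%. The median of all genes tested was 0.50, and that of the 8 members 1.11, so a large share of all genes also lay higher in the nucleus. FOS, EGR1 and ZFP36 lay further out, at 2.57 to 3.90. FOS had 426 and 425.9 TPM in the nucleus, against 26.44 and 28.9 TPM in the cytoplasm. The groups lay far apart, and the difference was 3.90 ± 0.06 (limma adjusted p = 2.42e-06). EGR1 had 354.3 and 367.9 TPM in the nucleus, against 46.17 and 47.27 TPM in the cytoplasm, a difference of 2.92 ± 0.04 (adjusted p = 2.64e-06). ZFP36 had 104.8 and 103.6 TPM in the nucleus, against 17.21 and 16.32 TPM in the cytoplasm, a difference of 2.57 ± 0.06 (adjusted p = 3.53e-06). JUN, with 1 exon, had 46.62 and 45.47 TPM in the nucleus, against 17.76 and 16.64 TPM in the cytoplasm, a difference of 1.37 ± 0.06 (adjusted p = 1.68e-05).

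The other members were split less widely in polyA RNA. IER5 had 21.87 and 22.04 TPM in the nucleus, against 11.2 and 12.47 TPM in the cytoplasm, a difference of 0.84. IER2 had 113.5 and 116.1 TPM in the nucleus, against 82.51 and 79.5 TPM in the cytoplasm, a difference of 0.50, equal to that of the median gene. JUND differed by 0.25, with 122.6 and 136.5 TPM in the nucleus, against 106.1 and 111 TPM in the cytoplasm, and KLF6 by 0.32. All 8 members tested had an adjusted p under 0.05 in limma, but these 4 did not reach 1 in size. All 4 had the nuclear libraries above the cytoplasmic ones. With the median gene set equal in all 4 libraries, JUN stood at 0.81 and lost its call, and JUND, IER2 and KLF6 turned to −0.30, −0.06 and −0.23. JUNB was nearly undetected in polyA RNA, with 1.175 and 0.3772 TPM in the nucleus, against 0.1329 and 0.5078 TPM in the cytoplasm, and was not tested. A low level and a failed estimate cannot be told apart for it here. In the total RNA table, which was scaled separately, it had 43.16 and 45.4 TPM in day 0 INPUT.

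**Figure D2:**
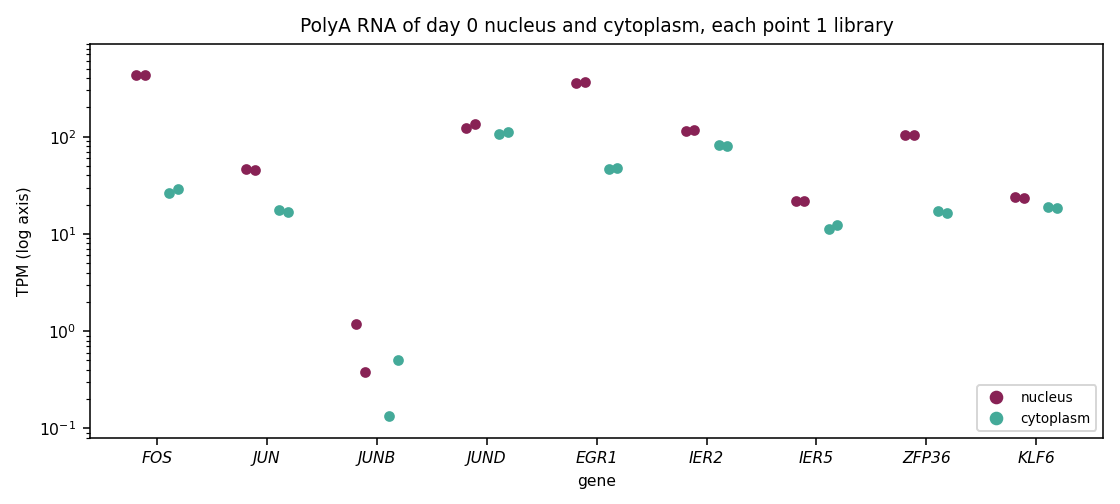
TPM of the 9 genes in day 0 polyA RNA on a log axis, 1 point per library, with nucleus left of cytoplasm. FOS, EGR1 and ZFP36 are furthest apart, and JUNB lies near or below 1 TPM in all 4 libraries.

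Nuclear marker RNAs were far higher in the polyA libraries labelled nucleus. MALAT1 and NEAT1 summed to 631.9 to 637.8 TPM in the polyA nucleus, against 17.44 to 17.83 TPM in the cytoplasm. Of 35 other immediate early and feedback genes tested, 8 were called higher in the nucleus and 1 lower. Of all genes tested, 30.0% were called higher and 6.22% lower, so those called higher were a smaller share of this list. The largest differences in it were CCN1 at 2.24, CCN2 at 2.15, SOCS3 at 1.77 and PLK3 at 1.52. Of 10 abundant long-lived mRNAs none was called higher and 3 were called lower, TPI1, ALDOA and LDHA, at −1.31, −1.23 and −1.14.

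In total RNA, FOS and JUND lay on opposite sides in the soluble nuclear extract over the cytoplasmic extract. On day 0, FOS was called higher in SNE than in CE, and JUND, IER5 and IER2 were called lower. That is 1 of 9 higher, against 30.0% of all genes tested, and 3 of 9 lower, against 8.66%. FOS had 377.6 and 386.6 TPM in SNE, against 180 and 189 TPM in CE, a difference of 1.05 ± 0.19 (adjusted p = 7.4e-05). JUND had 93.05 and 74.06 TPM in SNE, against 300.5 and 265.8 TPM in CE, a difference of −1.76 ± 0.19 (adjusted p = 1.39e-07). The libraries of FOS and JUND did not overlap between the extracts and lay in opposite order. IER2 had 133.8 and 121.4 TPM in SNE, against 361.2 and 368.6 TPM in CE, a difference of −1.51 ± 0.14 (adjusted p = 7.91e-09). IER5 had 18.79 and 12.26 TPM in SNE, against 58.55 and 46.25 TPM in CE, a difference of −1.71 ± 0.20 (adjusted p = 3.05e-07). ZFP36 stood at 101.5 and 112.9 TPM in SNE, against 63.55 and 56.82 TPM in CE, a difference of 0.82 that did not reach 1.

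On day 3, FOS was called higher in SNE, 1 of 9 against 30.5% of all genes tested, and JUND was called lower, 1 of 9 against 6.64%. FOS had 419.7 and 414.2 TPM in SNE, against 134 and 123.9 TPM in CE, a difference of 1.69 ± 0.19 (adjusted p = 1.43e-07), its widest in this pair of extracts. JUND differed by −1.42 ± 0.19, with 284.7 and 263.5 TPM in SNE, against 663.3 and 811.4 TPM in CE (adjusted p = 2.57e-06). KLF6 stood at 0.99, just under the threshold, and was called at 1.00 and 1.12 without the second SNE or the second CE library of day 3. On day 5, KLF6 was called higher, 1 of 9 against 35.9% of all genes tested, and JUND lower, 1 of 9 against 8.17%. KLF6 had 910 and 942.4 TPM in SNE, against 304.4 and 335.4 TPM in CE, a difference of 1.53 ± 0.15 (adjusted p = 1.36e-08). JUND had 377.7 and 377 TPM in SNE, against 944.9 and 1107 TPM in CE, a difference of −1.44 ± 0.19 (adjusted p = 1.77e-06). FOS stood at 991.9 and 936.6 TPM in SNE, against 488.9 and 537.2 TPM in CE, and its difference of 0.91 fell short of 1. IER2, lower in SNE, also fell just short of 1 in size. Without the first CE or the first SNE library of day 5, IER2 stood at −1.12 and −1.02 and was called. JUND was thus the one member called in the same direction on all 3 days.

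EGR1 and JUN were not called on the deposited scale in this pair of extracts on any day. EGR1 had 591.8 and 585.8 TPM in SNE, against 485.4 and 497 TPM in CE on day 0, and 935.1 and 889.4 TPM in SNE, against 1069 and 1095 TPM in CE on day 5, differences of 0.26 and −0.25. The order of the extracts for EGR1 was thus opposite on these days, with adjusted p of 0.182 and 0.2. JUN differed by 0.45, 0.57 and 0.31 on days 0, 3 and 5. JUNB differed by −0.56, −0.91 and −0.83, with its SE of 0.88.

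SNE and CE differ in make-up, which moves every TPM value. The median gene stood at 0.53, 0.54 and 0.65 in SNE over CE on days 0, 3 and 5. The mitochondrial mRNAs MT-ND2 and MT-CO1 together made up 49400 to 50860 TPM of SNE on day 0, against 3228 to 3523 TPM of CE. MALAT1 and NEAT1 together made up 9605 to 9899 TPM of SNE, against 2210 to 2217 TPM of CE. They made up 2821 to 2838 TPM of INPUT on day 0, so CE, the reference of every extract comparison, was not free of nuclear RNA. With the median gene set equal in all libraries, FOS differed by 0.17 on day 0 and 0.58 on day 3, both without a call, turned to −0.39 on day 5, and KLF6 stood at 0.23 on day 5. Of 24735 genes tested under that scaling, 2809, 2419 and 3217 were called higher on days 0, 3 and 5. Those called lower were 5073, 6474 and 8114, more than on the deposited scale. No member was called higher on any day under it. JUND, IER5 and IER2 were called lower on all 3 days, IER2 at −1.94 on day 3 and −2.30 on day 5, and IER5 at −1.16 and −1.10. EGR1 at −1.55 and ZFP36 at −1.05 joined them on day 5. With totals made anew without mitochondrial and structured RNA, FOS was called higher on all 3 days, ZFP36 on day 0 at 1.16, and JUN and KLF6 on day 3 at 1.03 and 1.44. JUND stood at −0.96 on day 3 under these totals, without a call. Of 25386 genes tested under them, 8927, 9444 and 10082 were called higher on days 0, 3 and 5, and 1470, 956 and 1376 lower. On the deposited scale, 30.0% of all genes tested were called higher in SNE on day 0. Those called lower were 8.66%, 6.64% and 8.17% on days 0, 3 and 5. Of 9 abundant long-lived mRNAs all 9 were called lower in SNE than in CE on each day, with LDHA at −3.47 and GAPDH at −2.94 on day 0. Of 16 upstream kinases and transcription factors, 9 were called higher and 2 lower on day 0, with MAPK8, which encodes the kinase JNK1, at 2.65. Of 42 other immediate early and feedback genes, 5 were called higher and 7 lower on day 0, so those called higher were a smaller share than of all genes tested. EGR3 at 1.87 and NR4A2 at 1.74 lay above, and ZFP36L2 at −2.16 and KLF10 at −2.12 below.

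**Figure D3:**
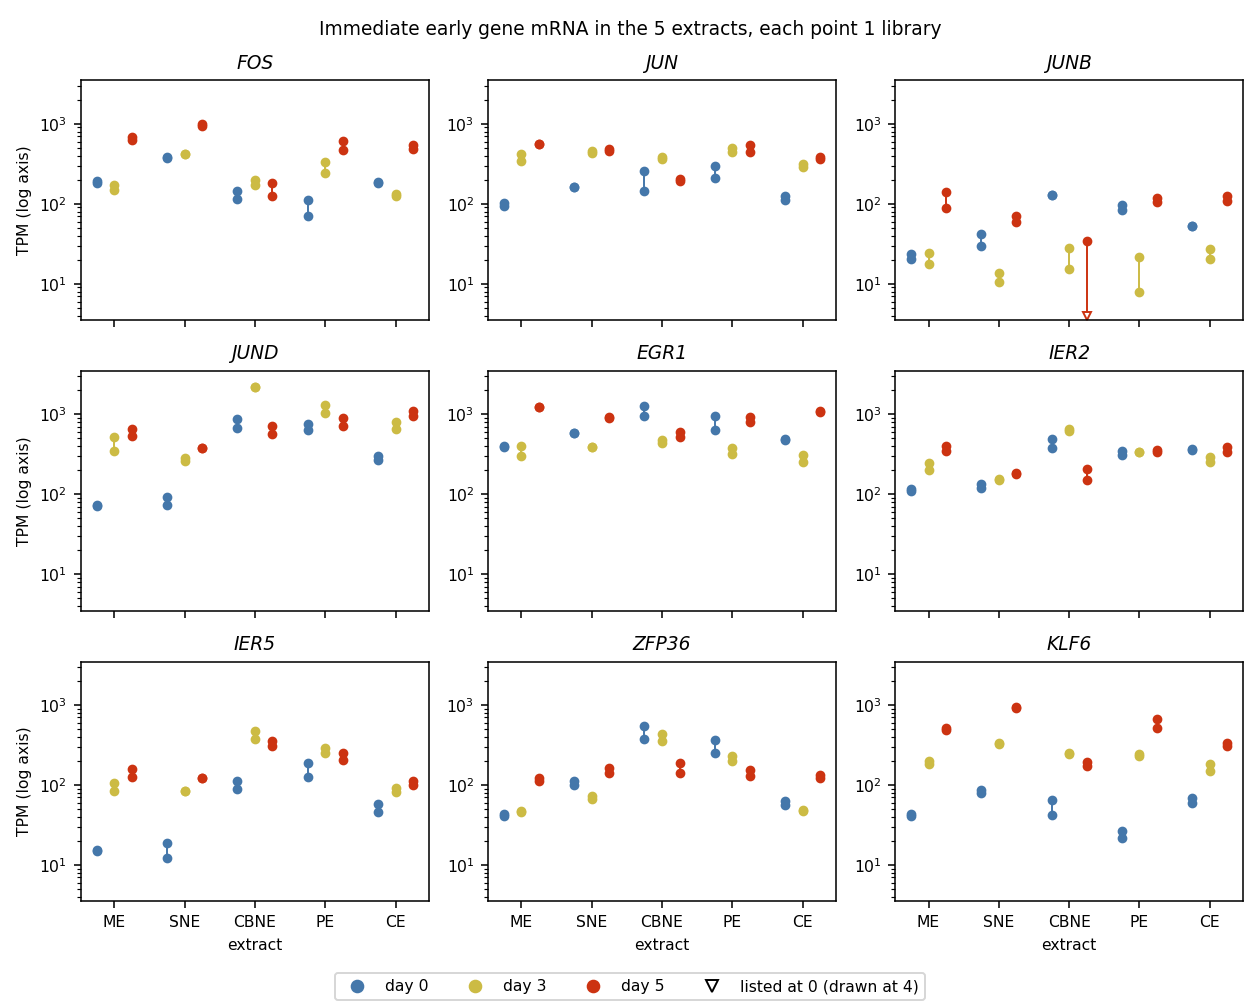
TPM of each gene in ME, SNE, CBNE, PE and CE on a log axis, 1 point per library, coloured by day, with lines joining the 2 libraries of a group. On day 0 JUND, IER2 and IER5 are lower in both ME and SNE than in CE, and the 1 day 5 CBNE library that lists JUNB at 0 is drawn as an open triangle at the floor of the axis.

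On day 0, JUND, IER5 and IER2 were called lower in ME than in CE, 3 of 9 against 15.2% of all genes tested, and none was called higher, against 1.41%. JUND had 73.55 and 71.3 TPM in ME, against 300.5 and 265.8 TPM in CE, a difference of −1.95 ± 0.19 (adjusted p = 1.11e-07). IER2 had 111.3 and 117.4 TPM in ME, against 361.2 and 368.6 TPM in CE, a difference of −1.67 ± 0.14 (adjusted p = 7.7e-09). IER5 had 14.79 and 15.44 TPM in ME, against 58.55 and 46.25 TPM in CE, a difference of −1.72 ± 0.20 (adjusted p = 9.55e-07). FOS, by contrast, had 180.5 and 190.1 TPM in ME, against 180 and 189 TPM in CE, a difference of 0.01. JUNB, at −1.23, had an adjusted p of 0.365, and was called lower in the fit without CBNE and PE (adjusted p = 0.000712). ME and SNE share the CE libraries of the day, so their differences are not independent. On day 3 none of the 9 was called, against 1.00% of all genes tested called higher and 6.82% lower, and on day 5 none was called, against 1.69% higher and 6.40% lower. In limma 2 members on day 3 and 3 on day 5 had an unadjusted p under 0.05. JUND lay at −0.79 on day 3 and −0.78 on day 5, with adjusted p of 0.00621 and 0.00641 but under 1 in size. Without the first day 3 ME library, JUND stood at −1.08 on day 3 and was called.

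ME is the extract richest in mitochondrial RNA. MT-ND2 and MT-CO1 together made up 127600 to 130900 TPM of ME on day 0, against 3228 to 3523 TPM of CE. MALAT1 and NEAT1 summed to 3230 to 3273 TPM in ME on day 0, against 2210 to 2217 TPM in CE. On day 5 they summed to 8047 to 9295 TPM in ME, against 3834 to 4011 TPM in CE. Neither was called in ME over CE on day 0. NEAT1 was called higher on days 3 and 5, at 1.15 and 1.47, and MALAT1 on day 5, at 1.13. With totals made anew without mitochondrial and structured RNA, the day 0 differences of JUND, IER2 and IER5 shrank to −0.64, −0.35 and −0.45 and lost their calls, while FOS, JUN and EGR1 were called higher, at 1.33, 1.04 and 1.03. Under the same totals 5 members were called higher on day 3 and 5 on day 5. Of 25386 genes tested under them, 5858, 4117 and 4163 were called higher in ME on days 0, 3 and 5, and 513, 235 and 280 lower. The order among the members within a library does not depend on the scaling. In ME, FOS stood above JUND on days 0 and 5 and below it on day 3. Of 42 other immediate early and feedback genes, 16 were called lower in ME on day 0 on the deposited scale and none higher. Of all genes tested, 15.2% were called lower and 1.41% higher. The largest differences in the list were KLF10 at −2.38, ZFP36L2 at −2.10, MIDN at −1.88 and BTG1 at −1.85.

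The gap between extracts changed between days for IER5 and, by day 5, for KLF6. The SNE over CE difference of IER5 stood at −1.71 on day 0, −0.05 on day 3 and 0.20 on day 5, a change of 1.66 ± 0.28 by day 3 (limma interaction, adjusted p = 0.000672) and of 1.91 ± 0.28 by day 5 (adjusted p = 9.88e-05). IER5 had 84.77 and 83.51 TPM in SNE on day 3, against 81.31 and 93.02 TPM in CE, and 122.3 and 122.6 TPM in SNE on day 5, against 100.5 and 113.2 TPM in CE. On day 3 the extracts overlapped. With the median gene set equal, IER5 was still called lower in SNE on days 3 and 5, at −1.16 and −1.10, while its changes stayed called under both other scalings. It was the 1 member of 9 whose change was called on day 3, against 2.44% of all genes tested called upward, and none was called downward, against 1.32%. By day 5, IER5 and KLF6 were called upward, 2 of 9 against 5.63%, and none downward, against 1.53%. KLF6 changed by 1.18 ± 0.21 (adjusted p = 0.000577), but by 0.76 without a call once the median gene was set equal.

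In ME over CE the changes went the same way. By day 3, IER5, IER2 and JUND were called upward, 3 of 9 against 3.44% of all genes tested, with changes of 1.84, 1.37 and 1.16, and none downward, against 0.190%. By day 5, IER5, IER2, KLF6 and JUND were called upward, 4 of 9 against 3.24%, with changes of 2.12, 1.71, 1.25 and 1.17, and none downward, against 0.194%. IER2 had 407.5 and 348.2 TPM in ME on day 5, against 335.5 and 396 TPM in CE, so its extracts overlapped there. IER5 had 156.7 and 126.2 TPM in ME on day 5, against 100.5 and 113.2 TPM in CE, with both ME libraries above both CE libraries. The IER5 and IER2 changes were called under all 3 scalings. Those of KLF6 stood at 0.94 with equal medians and 0.85 with new totals, without a call. Those of JUND were not called under either other scaling, nor without the first CE library of day 0 or the first CE or ME library of the later day, with 0.87 to 1.09 on the log2 scale. Other genes changed alike. Of 9 abundant long-lived mRNAs, 3 were called upward by day 3, ACTB at 1.22, PGK1 at 1.19 and ENO1 at 1.16, with a median of 0.92 over the 9, against 0.79 over the members. By day 5, 2 of them were called upward, ACTB at 1.27 and ENO1 at 1.19, with a median of 0.93 against 1.17 over the members. The median over all genes tested was 0.10 by day 3 and 0.17 by day 5. MALAT1 and NEAT1 changed by −0.24 to 0.25 by day 3 and by 0.57 to 0.58 by day 5, without a call. The part of nuclear RNA in the members' changes was not tested. In the fit without CBNE and PE, JUNB was called upward too, by 1.06 and 1.17. Both ME comparisons between days were added after the values were seen.

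The chromatin-bound and pellet extracts were shallow, so their values rest on few reads, estimated per library from TPM and spliced length. Each gene's SE came from a fit over all 36 total RNA libraries, deep and shallow together, without weights. The SEs and adjusted p-values given for CBNE and PE thus do not measure the spread at such low read numbers. All their comparisons with CE except that of PE on day 5 were added after the values were seen. ZFP36 stood out on days 0 and 3. In CBNE it had 544.9 and 378.2 TPM on day 0 (about 29 and 17 reads), against 63.55 and 56.82 TPM in CE, a difference of 2.90 ± 0.19 (adjusted p = 4.93e-11). On day 3 it had 355.8 and 435.7 TPM in CBNE (about 38 and 56 reads), against 48.98 and 47.86 TPM in CE, a difference of 3.00 ± 0.19 (adjusted p = 1.67e-11). On day 5 it had 190.3 and 139.4 TPM in CBNE, from about 5 reads each, against 121.8 and 134.2 TPM in CE, a difference of 0.35 with no call. In PE it had 361.7 and 248.9 TPM on day 0 and 198.1 and 228.8 on day 3, differences from CE of 2.30 and 2.11, and 130 and 155.5 TPM on day 5, a difference of 0.15.

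MALAT1 and NEAT1 together made up 1193 to 1501 TPM of CBNE on day 0, against 2210 to 2217 TPM of CE, so these RNAs did not mark CBNE as nuclear. On day 0, ZFP36, JUND and EGR1 were called higher than in CE, 3 of 9 against 14.9% of all genes tested, and none lower, against 27.8%. EGR1 had 1270 and 956 TPM in CBNE, against 485.4 and 497 TPM in CE, a difference of 1.16 ± 0.16, which fell to 0.96 and lost its call without the first CBNE library. On day 3, ZFP36, IER5, JUND and IER2 were called higher, 4 of 9 against 25.9%, and none lower, against 18.3%. JUND had 2203 and 2232 TPM in CBNE on day 3, its highest values in any library, against 663.3 and 811.4 TPM in CE, a difference of 1.59 ± 0.19 (adjusted p = 4.14e-07). IER5 had 377.5 and 475 TPM there, against 81.31 and 93.02 TPM in CE, a difference of 2.27 ± 0.20 (adjusted p = 3.28e-09). On day 5, IER5 alone was called higher, 1 of 9 against 17.6%, with 310.1 and 358.7 TPM in CBNE (about 21 and 29 reads), against 100.5 and 113.2 TPM in CE. FOS, JUNB and IER2 were called lower on day 5, 3 of 9 against 26.6%. JUNB had 33.98 TPM (about 1 read) in one CBNE library and was listed at 0 in the other, so its fitted difference is no measure of size. FOS had 125.2 and 179.8 TPM in CBNE, from about 4 and 7 reads, against 488.9 and 537.2 TPM in CE, a difference of −1.77 ± 0.19 (adjusted p = 5.94e-08), which stood at −0.85 and lost its call with the median gene set equal. IER2 lost its call at −0.93 and −0.82 without the second CE or the second CBNE library, and EGR1 gained one at −1.03 without the first CBNE library. On day 0, JUN was called at 1.12 without the second CBNE library, and IER5 at 1.10 without the first CE or the first CBNE library. Both were also called under both other scalings on day 0, as was ZFP36 on day 5, at 1.26 and 1.02. IER2 lost its day 5 call under both, and its day 3 call, at 0.99, with the median gene set equal.

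In PE the day 0 pattern was mixed. ZFP36, IER5, JUND and JUN were called higher than in CE, 4 of 9 against 8.09% of all genes tested, and FOS and KLF6 lower, 2 of 9 against 26.8%. KLF6 had 21.9 and 26.55 TPM in PE, from about 4 reads each, against 59.91 and 69.4 TPM in CE, a difference of −1.38 ± 0.15. FOS had 110.3 and 71.3 TPM, from about 9 and 5 reads, against 180 and 189 TPM in CE, a difference of −1.05 ± 0.19. Neither was called under either other scaling, and FOS stood at −0.74 without the second PE library. JUN lost its call at 0.98 and 0.82 without the first CE or the first PE library. On day 3, ZFP36, IER5 and FOS were called higher, 3 of 9 against 25.3%, and none lower, against 8.47%. FOS had 336.2 and 243.4 TPM in PE on day 3, against 134 and 123.9 TPM in CE, a difference of 1.14 ± 0.19, opposite in sign to day 0, which lost its call at 0.91 without the first PE library and at 0.18 with the median gene set equal, where IER5 also lost its day 3 call, at 0.65. EGR1 was called higher on day 0 under both other scalings, at 1.28 and 1.33. On day 5, when PE was deepest, IER5 alone was called higher, 1 of 9 against 21.4%, and none lower, against 6.21%. IER5 had 251.2 and 204.3 TPM in PE, against 100.5 and 113.2 TPM in CE, a difference of 1.08 ± 0.20 (adjusted p = 0.000147). That call was lost without the first CE library, at 0.99, without the first PE library, at 0.93, and with the median gene set equal, at 0.19, where JUND and EGR1 were called lower, at −1.24 and −1.22. KLF6, at 0.87, was called at 1.05 without the first PE library.

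**Figure D4:**
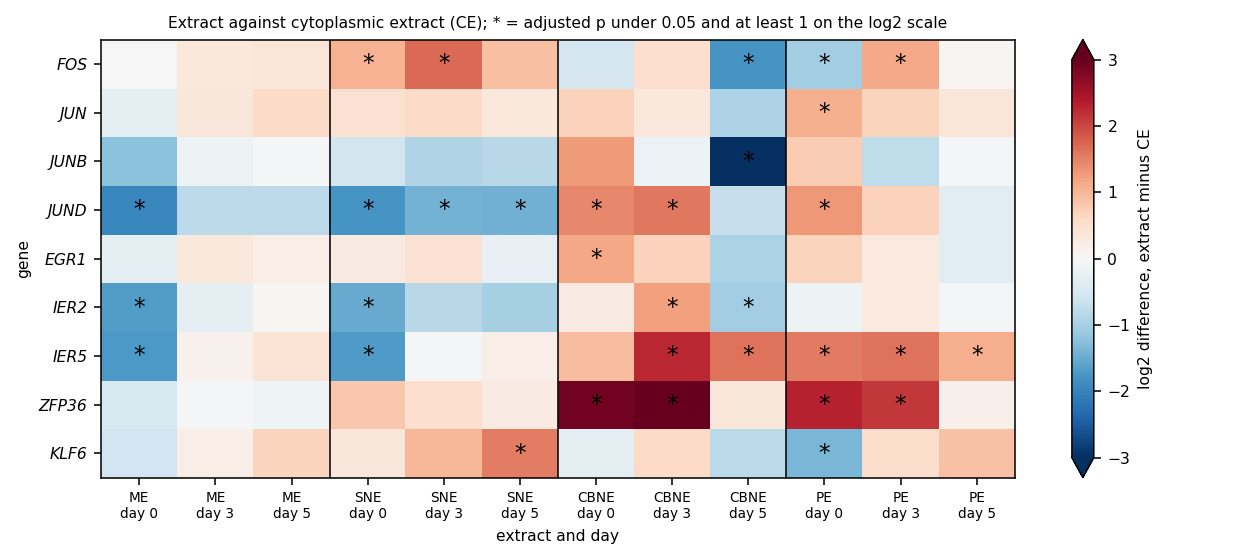
Log2 differences of each extract from CE of the same day, red where higher in the extract and blue where lower, with the scale ending at 3 in each direction and a star where a gene was called. ZFP36 is starred at 2.11 to 3.00 in CBNE and PE on days 0 and 3, and JUND is starred as lower in SNE on all 3 days.

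Ratios of a pair of members within one library do not change with any scaling of that library, and 3 pairs were taken after the values were seen. The ratio of FOS to JUND on day 0 was 2.45 and 2.67 in ME, 4.06 and 5.22 in SNE, 0.165 and 0.168 in CBNE and 0.147 and 0.111 in PE, against 0.599 and 0.711 in CE. On day 0 FOS thus outweighed JUND in ME and SNE, and JUND outweighed FOS in CBNE, PE and CE, with no overlap between those sets. On day 3 the ratio was 0.329 and 0.431 in ME, 1.47 and 1.57 in SNE and 0.0773 and 0.0877 in CBNE, against 0.202 and 0.153 in CE, and on day 5 it was 1.04 and 1.18 in ME, 2.63 and 2.48 in SNE and 0.222 and 0.249 in CBNE, against 0.517 and 0.485 in CE. The PE ratio was 0.32 and 0.184 on day 3, overlapping CE, and 0.52 and 0.866 on day 5, above CE. FOS in CBNE rests on about 9 and 6 reads on day 0 and about 4 and 7 on day 5. In polyA RNA the ratio of FOS to JUND was 3.47 and 3.12 in the nucleus, against 0.249 and 0.26 in the cytoplasm. The ratio of KLF6 to IER2 was 4.92 and 5.27 in SNE on day 5, against 0.907 and 0.847 in CE. The ratio of IER5 to IER2 was 0.14 and 0.101 in SNE on day 0, against 0.162 and 0.125 in CE, where the extracts overlapped, and 0.661 and 0.685 in SNE on day 5, against 0.3 and 0.286 in CE.

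**Figure D5:**
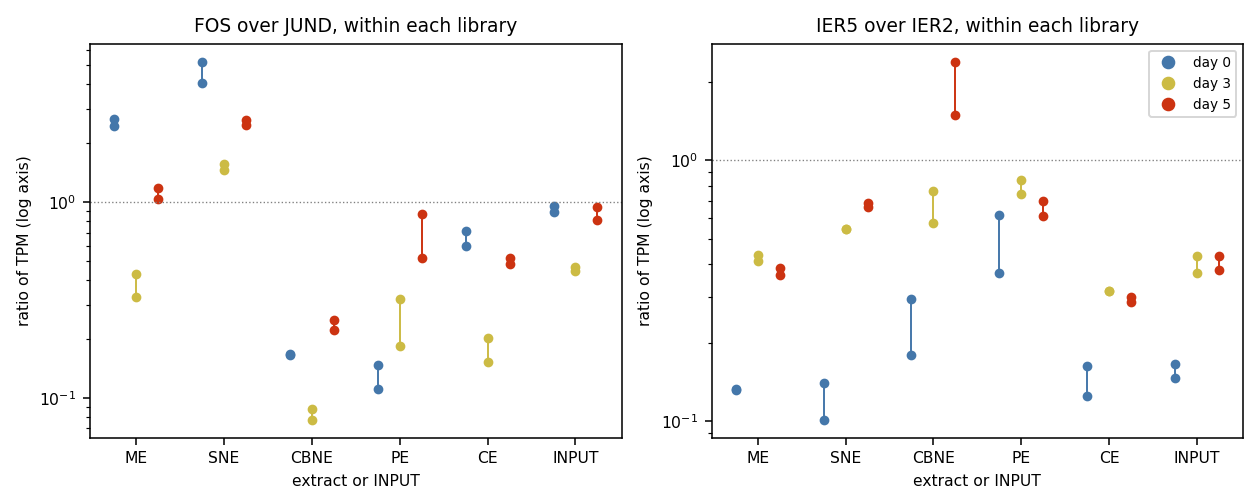
Ratio of FOS to JUND (left) and of IER5 to IER2 (right) within each library on a log axis, by extract with INPUT at the right end, coloured by day, 1 point per library. FOS over JUND lies at 1.47 or more in SNE on all 3 days and at 0.249 or less in CBNE, and IER5 over IER2 exceeds 1 only in the 2 day 5 CBNE libraries.

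Across the 24 ME, SNE, CE and INPUT libraries, which share depth and the days of one time course, Pearson's r between members on the log2(TPM + 1) scale ran from 0.09 for FOS and IER2 to 0.94 for JUN and KLF6. It was 0.93 for FOS and ZFP36, 0.92 for JUND and IER5, 0.89 for EGR1 and ZFP36, 0.88 for JUNB and EGR1, 0.85 for JUN and IER5, and 0.25 for FOS and JUND. Among 12705 genes of at least 5 TPM on average, those most like the mean profile of the 9 members were DSC2 (r = 0.982), BMF (0.980), KIAA0040 (0.976), MXRA8 (0.972) and ST14 (0.971). The members' own r to that mean ran from 0.605 for IER2 to 0.902 for KLF6. Each member's values are part of that mean, so these r are not comparable with those of the other genes.

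GC content ran alongside some of the extract differences. Over the 9 members, Spearman's rho between GC content and the SNE over CE difference was −0.38, −0.75 and −0.80 on days 0, 3 and 5, and over 10432 protein-coding genes it was −0.38, −0.39 and −0.41. KLF6 (45.9% GC) and JUND (69.7% GC) are the ends of that order on day 5. Spliced length and the ME over CE difference gave rho of 0.88 over the members on day 5, against 0.57 over genes, and 0.03 on day 0, against 0.38. Their part in the extract differences was not tested.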

How the data were processed

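Both deposited tables hold TPM as the authors computed it, with 1 column per library. The unit was read from the values: columns summed to 989513 to 998559 in total RNA and to 1000000 in polyA RNA. The submitters' processing notes list Salmon 1.3.0, featureCounts 1.6.2, HISAT2 2.0.5, GATK and hg38, and which tool made which table is not given in the sources used here. Groups and replicates came from the library titles.

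A gene was tested if at least 2 libraries reached 1 TPM. The test was limma 3.58.1 (R 4.3.3) on log2(TPM + 1), with a mean for each group, a trended, robust variance prior and Benjamini-Hochberg adjustment over all genes tested. TPM values are not read counts, so no count model was run. Of 20 comparisons, 7 were added after the values were seen. Log2 differences are given ± SE. Transcript structure came from GENCODE 29 (the APPRIS principal, then the longest, coding transcript) and promoters from RefSeq. Reads were estimated from the commonest TPM times length, taken as 1 read. Only 37.7% to 47.9% of the rebuilt values in total RNA, and 78.1% to 79.0% in polyA RNA, lay within 0.05 of a whole number, so read numbers are approximate. No 2 replicate columns were copies, since at least 15552 genes differed. All 9 genes are named, and of the other lists at most 4 called genes per comparison, by size. The members, lists and comparisons were chosen with earlier results of these data known. Alternatives are given in the closing section.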

Additional observations from a re-analysis of the deposited data

Results flagged for a closer look

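These results are given because an extract's difference from CE changed between days by a test of the change itself (limma interaction, adjusted p under 0.05 and at least 1 on the log2 scale). All 10 were positive, so the later day lay higher in the extract relative to CE than day 0 did. In SNE over CE, IER5 changed by 1.66 by day 3 and by 1.91 by day 5, and KLF6 by 1.18 by day 5. In ME over CE, by day 3 IER5 changed by 1.84, IER2 by 1.37 and JUND by 1.16. By day 5 IER5 changed by 2.12, IER2 by 1.71, KLF6 by 1.25 and JUND by 1.17. The 7 ME changes come from comparisons added after the values were seen. Changes in one extract share the day 0 libraries, and both extracts share the CE libraries, so the 10 values are not independent.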

How the results depend on the processing

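Log2 differences and counts of members were computed anew with a pseudocount of 0.1 or 5, no filter, the median gene set equal in all libraries, totals made anew without mitochondrial and structured RNA, only the groups compared, no CBNE or PE libraries in the fit, a replicate block, and each library left out in turn. The replicate numbers did not mark pairs: replicate differences correlated across genes at −0.098 to 0.164 between groups of a day and at −0.009 in polyA RNA. The replicate block kept all 179 member results on their side of the threshold, with INPUT counts of 4 on day 3, 7 on day 5 and 4 between them. No called member result changed sign under any setting. Counts of members called moved by over 1.5 times as follows. With the median gene set equal, 5 members were called in SNE over CE on day 5 (0 higher), 2 in PE on day 5 (both lower), 1 in PE on day 3, 6 in CBNE on day 0, and 2 in the change of ME over CE by day 5. With totals made anew, 5 were called in ME on day 3, 5 in ME on day 5, 2 in PE on day 5, 5 in PE on day 3, 5 in CBNE on day 0 and 2 in the change of ME by day 5. With 1 library left out, ME on day 3 ran between 0 and 1 and PE on day 5 between 0 and 1. With the median gene set equal, these members, uncalled at the deposited scale, changed sign (those of 1 or more in size were then called): for polyA nucleus over cytoplasm JUND (−0.30), IER2 (−0.058), KLF6 (−0.23), for SNE over CE on day 0 JUN (−0.42), EGR1 (−0.61), ZFP36 (−0.050), KLF6 (−0.53), for SNE over CE on day 3 JUN (−0.54), EGR1 (−0.65), ZFP36 (−0.60), KLF6 (−0.12). The same held for SNE over CE on day 5 FOS (−0.39), JUN (−0.99), IER5 (−1.10), ZFP36 (−1.05), for ME over CE on day 5 IER2 (−0.071), for PE over CE on day 5 FOS (−0.82), JUN (−0.52), ZFP36 (−0.74), KLF6 (−0.016). The same held for the change of SNE over CE by day 3 JUN (−0.12), EGR1 (−0.035), for the change of SNE over CE by day 5 JUND (−0.11), for PE over CE on day 0 IER2 (0.45). The same held for PE over CE on day 3 JUN (−0.30), JUND (−0.28), EGR1 (−0.66), IER2 (−0.67), KLF6 (−0.43), for CBNE over CE on day 0 FOS (0.25), KLF6 (0.47), for CBNE over CE on day 5 JUND (0.23), KLF6 (0.11). With totals made anew, sign changed for SNE over CE on day 3 IER5 (0.40), for SNE over CE on day 5 EGR1 (0.087), for ME over CE on day 0 JUN (1.04), JUNB (0.058), EGR1 (1.03), ZFP36 (0.82), KLF6 (0.72). The same held for ME over CE on day 3 JUNB (0.82), JUND (0.23), IER2 (0.72), ZFP36 (0.95), for ME over CE on day 5 JUNB (0.85), JUND (0.14), ZFP36 (0.79), for PE over CE on day 5 JUNB (0.39), JUND (0.10), EGR1 (0.12), IER2 (0.38). The same held for PE over CE on day 0 IER2 (0.50), for CBNE over CE on day 0 KLF6 (0.17), for the change of ME over CE by day 3 FOS (−0.0034). The same held for the change of ME over CE by day 5 FOS (−0.050), ZFP36 (−0.029). With 1 library left out, sign changed for ZFP36 in INPUT on day 3 (−0.12 to 0.30), IER5 in SNE over CE on day 3 (−0.14 to 0.049), FOS in ME over CE on day 0 (−0.031 to 0.043), JUNB in ME over CE on day 3 (−0.39 to 0.060). It also did for IER5 in ME over CE on day 3 (−0.046 to 0.28), JUNB in ME over CE on day 5 (−0.41 to 0.28), IER2 in ME over CE on day 5 (−0.072 to 0.17), FOS in PE over CE on day 5 (−0.11 to 0.26). It also did for JUNB in PE over CE on day 5 (−0.16 to 0.033), IER2 in PE over CE on day 5 (−0.19 to 0.050), KLF6 in CBNE over CE on day 0 (−0.59 to 0.020), JUNB in CBNE over CE on day 3 (−0.60 to 0.23). The cause of these shifts was not tested.

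The count over all genes called also moved. A pseudocount of 5 gave 904, 1662 and 557 calls for INPUT (day 3 and day 5 over day 0, day 5 over day 3), where a pseudocount of 1 gave 1840, 3172, 1189. It gave 4289 for PE on day 5, 5456 for PE on day 3, 1081 for the change of SNE by day 5 and 3394 in polyA RNA. Without CBNE and PE in the fit there were 2902 calls for ME on day 3, 3060 for ME on day 5, 1757 for the change of SNE by day 3, and 1793 and 1793 for the change of ME by days 3 and 5. With only the groups compared there were 3115 for ME on day 5, 1812 and 2690 for the change of SNE, and 1879 and 1948 for the change of ME. Without the second ME library ME on day 3 had 1239 calls, and without the first CE library of day 3 the change of ME by day 3 had 595. The split of all genes called turned with the scaling. SNE on day 0 had 7430 higher and 2141 lower, 2809 higher and 5073 lower with equal medians. SNE on day 3 had 7548 higher and 1643 lower, 2419 higher and 6474 lower with equal medians. SNE on day 5 had 8882 higher and 2022 lower, 3217 higher and 8114 lower with equal medians. ME on day 0 had 349 higher and 3749 lower, 688 higher and 2982 lower with equal medians, and 5858 higher and 513 lower with new totals. ME on day 3 had 248 higher and 1686 lower, 4117 higher and 235 lower with new totals. ME on day 5 had 419 higher and 1583 lower, 4163 higher and 280 lower with new totals. PE on day 0 had 2002 higher and 6635 lower, 4411 higher and 4117 lower with equal medians, and 3647 higher and 4559 lower with new totals. PE on day 3 had 6249 higher and 2094 lower, 2065 higher and 6176 lower with equal medians, and 7849 higher and 1367 lower with new totals. PE on day 5 had 5285 higher and 1535 lower, 1562 higher and 5486 lower with equal medians, and 7378 higher and 774 lower with new totals. CBNE on day 0 had 3683 higher and 6875 lower, 6843 higher and 4283 lower with equal medians, and 4967 higher and 5618 lower with new totals. CBNE on day 5 had 4350 higher and 6580 lower, 7661 higher and 4020 lower with equal medians, and 5867 higher and 5314 lower with new totals. The change of SNE by day 3 had 603 higher and 327 lower, 311 higher and 583 lower with equal medians. The change of SNE by day 5 had 1392 higher and 379 lower, 429 higher and 891 lower with equal medians. The change of ME by day 3 had 851 higher and 47 lower, 389 higher and 97 lower with equal medians, and 382 higher and 465 lower with new totals. The change of ME by day 5 had 802 higher and 48 lower, 234 higher and 107 lower with equal medians, and 250 higher and 375 lower with new totals. PolyA nucleus over cytoplasm had 5005 higher and 1037 lower, 2397 higher and 2809 lower with equal medians. 

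Depth limits CBNE throughout and PE on days 0 and 3, where JUNB rests on 0 to 7 estimated reads a library. Having 2 libraries a group limits every SE.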

Other observations

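Some other immediate early genes showed wide extract differences on day 5. FOSB, an AP-1 subunit gene closely related to FOS, was called higher in ME than in CE by 2.52, in SNE by 4.48 and in PE by 3.36 (limma, all called after adjustment over all genes tested). EGR3, a zinc finger relative of EGR1, was called higher in ME by 1.21, in SNE by 2.47 and in PE by 2.74. NR4A1, which encodes an orphan nuclear receptor, was called higher in SNE by 2.54 and in PE by 1.79, and its relative NR4A3 in SNE by 2.39. In SNE on day 5, 8 of 42 such genes were called higher and 4 lower, where 35.9% of all genes tested were called higher and 8.17% lower. Genes called higher were thus a smaller share of this list than of all genes tested. The genes named here have the largest differences, and the lowest of the 42 in SNE stood at −1.69. These comparisons share the day 5 CE libraries, and those of SNE and PE cannot be told apart from the jump in library numbers.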
